A study of Mus musculus with 17 samples.

Results

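The 32 genes described here encode the enzymes that make cholesterol and fatty acids, the proteins that switch those enzymes on, and proteins that carry cholesterol through and out of the cell. They were chosen by name and found by gene symbol among the 47069 genes of the count table with LUC and Arid3a, then by Ensembl identifier in the other tables, and all 32 were found. The enzymes of the early and mevalonate steps (7 genes) turn acetyl-CoA into farnesyl diphosphate, those of the later steps (11 genes) turn that into squalene and then cholesterol, 5 genes form the SREBP control system, 5 act in cholesterol transport, and 4 make and desaturate fatty acids.

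Cells sense their own cholesterol in the membrane of the endoplasmic reticulum. When it is low, SCAP escorts the membrane-bound SREBP transcription factors (encoded by Srebf1 and Srebf2) to the Golgi, where they are cut and released to the nucleus to switch on genes of sterol and fatty acid synthesis. When it is high, INSIG proteins hold SCAP back, and oxysterols activate the LXR receptors, which switch on the efflux pumps encoded by Abca1 and Abcg1. Dividing cells draw on both pathways for new membrane.

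The study altered Arid3a, a transcription factor gene, in mouse fetal liver cells, and read counts per gene from RNA sequencing were analysed for 17 libraries in 6 groups. All groups shared a B6J.129(Cg) strain whose Gt(ROSA)26Sor locus carries cas9 and EGFP under the CAG promoter, and the embryonic age of day E12.5-13.5. The guide sgGata1 was carried by every group but WT, and the labels call these Gata1s cells. The LUC and Arid3a groups (3 libraries each, a luciferase control and an Arid3a transgene) had Doxycycline at 1 μg/mL for 48 h. The groups sh-ctrl (a control hairpin, 3 libraries), shArid3a (a hairpin against Arid3a, 2 libraries) and miR-125b (the microRNA, 3 libraries) had the same concentration for 10 days. WT (3 libraries) carried sgLuc and shLuc and lists no treatment. The labels do not say whether libraries of a group came from separate embryos or cultures, so p-values measure the spread between these libraries, which may be technical. The shArid3a library numbered 2 was not analysed here.

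Because miR-125b is itself a sequence that reads messenger RNAs, its letters are given first, with the places in these 32 genes that pair with its seed. A microRNA guides repression mainly through its seed, the bases 2 to 8 from the 5′ end, which pair with the reverse complement in a 3′ untranslated region (UTR). The mature sequence is from RefSeq (GRCm38.p6), with the seed in capitals, and is encoded at chr9:41581940-41581961 and chr16:77646279-77646300, both on the plus strand.
mmu-miR-125b-5p: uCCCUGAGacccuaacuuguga

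Sites that match all 7 seed bases (CTCAGGG, searched on the gene's own strand in the longest annotated 3′ UTR of GENCODE M21) were found in 5 of the 32 genes. They are shown because 3 of the 5, Dhcr7, Hsd17b7 and Srebf2, are among the genes that fell in the miR-125b libraries below, while Lss and Acaca did not pass the test there. Capitals mark the bases that pair with the seed, with the additional A of an 8-base site in Lss.
Dhcr7 site: gcccccccccccaaaCTCAGGG
Hsd17b7 first site: tgtaggcgttcCTCAGGG
Hsd17b7 second site: tggcaaaggctccatCTCAGGG
Srebf2 first site: agacggccgcctgagCTCAGGG
Srebf2 second site: ctgcagactgcttggCTCAGGG
Lss 8-base site: catgtaactccagttCTCAGGGA
Lss 7-base site: caccttgtgctgtgaCTCAGGG
Acaca site: cagcaacacggcttcCTCAGGG

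The 5 genes with such a site made up 15.6% of the 32, against 15.7% of 11505 tested genes with an annotated 3′ UTR, so the group held these sites as often as other genes. Its 3′ UTRs had a median length of 1576 bases, against 1133. Idi1, Fdps, Scd1, Scd2, Stard4, Npc1 and Abca1, the other genes that fell, hold no 7-base match to the seed in this UTR. That of Fdps is only 55 bases long. A match is a description of letters and not evidence of pairing in the cell.

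Promoters were read for the same genes, since 10 of them fell together in miR-125b. RefSeq promoters (GRCm38.p6, from 250 bases before to 50 after the start site) were matched for 24 of the 32. CCAAT, the motif bound by NF-Y, which works beside SREBP at sterol genes, was present on either strand in 20 of the 24 (83.3%), against 41.1% of 27025 genes with a promoter in the table. These 27025 were not limited to genes expressed here, while all 32 were expressed. The shares for this motif and the next thus come from unlike sets, and a share over expressed genes alone was not computed. The sterol element TCACNCCAC, searched on both strands, was present in 1 of the 24 (4.17%, Hmgcs1), against 1.44%. It did not overlap a CCAAT, the nearest of which lay 39 bases away. The windows below are those of Hmgcs1 and of the genes that fell whose promoter was matched and holds CCAAT, read on the gene's strand, with the motif in capitals. Each shows the CCAAT nearest to the start site, which is 1 of 2 in Idi1 and Dhcr7, 1 of 3 in Hsd17b7 and the single one in Srebf2. The promoter of Abca1, which also fell, was matched and holds no CCAAT, and Fdps, Npc1, Scd1, Scd2 and Stard4 were not matched. A CCAAT on the other strand appears there as its reverse complement, ATTGG.
Idi1, chr13:8885580-8885609, plus strand: gtccaaggtgccATTGGctggcgaccgaca
Dhcr7, chr7:143830153-143830182, plus strand: aatccacttccgATTGGtcgtctgtgacct
Srebf2, chr15:82147122-82147151, plus strand: cttcgcgcgccgATTGGctaatgcaagcct
Hsd17b7, chr1:169969200-169969229, minus strand: ggccgagccttgATTGGtcgaggtgcgcgt
Hmgcs1 sterol element, chr13:119690204-119690233, plus strand: cgtcaccgtcTCACCCCACttcccaggtcc

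The CCAAT in Idi1 begins 14 bases before the start site, that in Dhcr7 49, that in Srebf2 135 and that in Hsd17b7 12. Dhcr7 has 3 promoters in the set used, and the window is from the only one of them that holds CCAAT. It lies inside the gene, which begins at 143823145, so the start site meant for Dhcr7 is an alternative one. The windows of Idi1 and Hsd17b7 also lie inside the deposited genes, which begin at 8885501 (plus strand) and 169969241 (minus strand). The start sites used here for these genes thus differ from the deposited ones. The sterol element of Hmgcs1 begins 137 bases before its start site. A match in these windows says nothing of what binds there, and a gene without one was not searched further away.

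Libraries held 31339238 to 38678649 counts in the table of LUC and Arid3a, 31992089 to 40859301 in the table of the 10-day groups and 16362439 to 19212193 in WT. Levels are CPM (read counts scaled to a library of standard size), scaled by TMM (a factor per library that lines up the bulk of genes) within each table, unless a sentence says otherwise. Arid3a itself was at 67.3, 64.0 and 70.2 CPM in LUC and 58.3, 74.3 and 80.1 in the libraries labelled Arid3a, with a log2 fold change of 0.08 ± 0.12 (SE, adjusted p 0.737 in edgeR), so its counts were not raised there beyond the spread between libraries. It was at 45.2, 56.3 and 57.2 CPM in sh-ctrl, 20.4 and 18.9 in shArid3a and 7.14, 9.75 and 10.0 in miR-125b, where it fell by 1.43 and by 2.56 on the log2 scale (edgeR adjusted p-values 0.0368 and 0.000282). Hepatocyte markers (8 genes) summed to at most 5.94 CPM in any library, with Ahsg at 0 in every group, while megakaryocyte markers (8 genes) summed to 2177 to 4074 CPM in the Gata1s groups. Transcripts that define hepatocytes were thus at or near 0 in all libraries, and those of the megakaryocyte line were abundant.

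**Figure D1:**
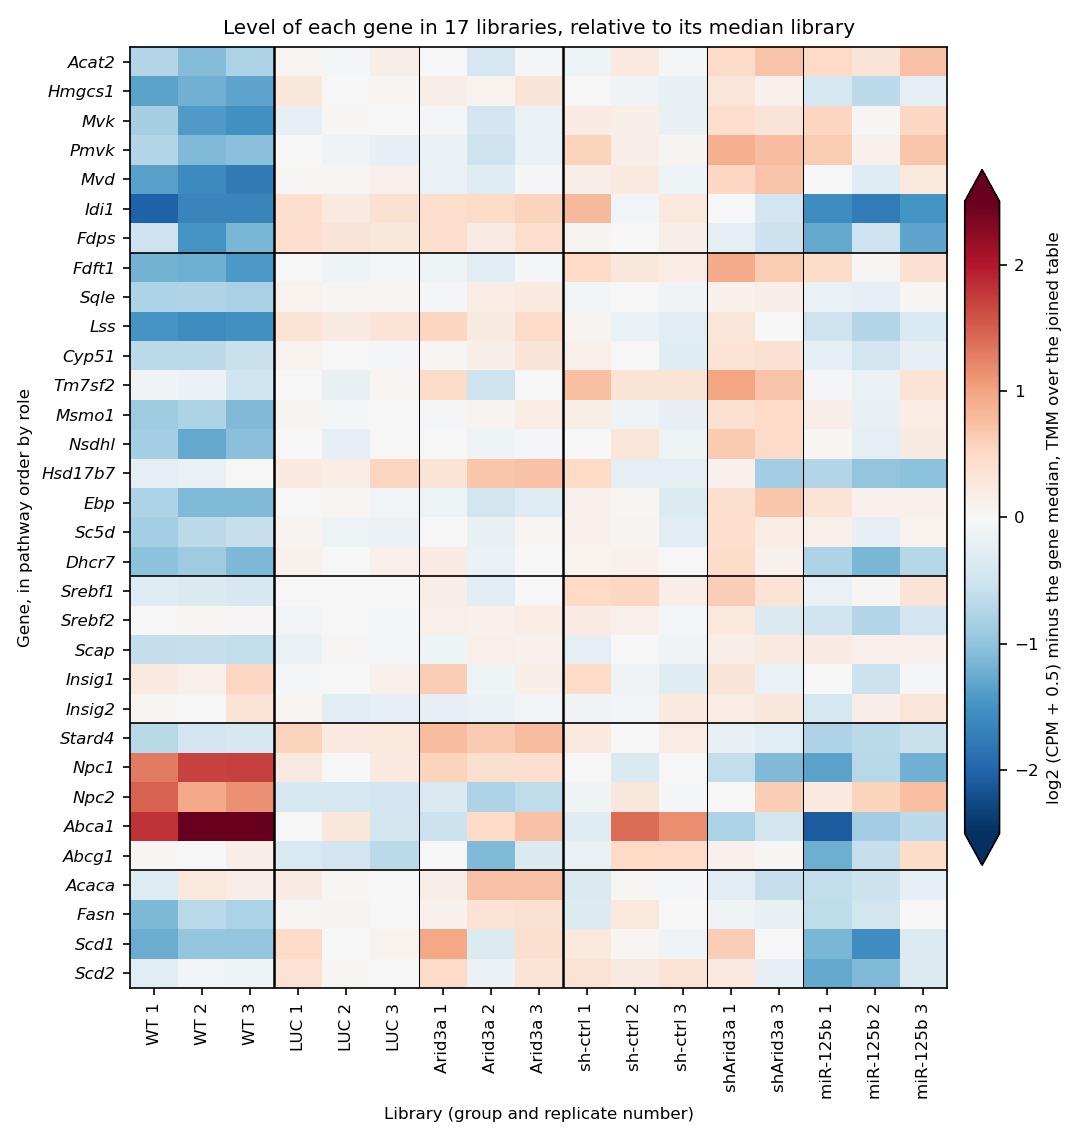
Level of each of the 32 genes (rows, by role) in each of the 17 libraries (columns), as log2 of CPM plus 0.5 minus the gene's median over libraries, scaled by TMM over the joined tables. The 3 WT columns are low for most synthesis enzymes and high for Abca1, Npc1 and Npc2, and the 3 miR-125b columns are low for Idi1, Dhcr7, Scd1 and Scd2.

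All 32 genes were expressed above the filter on low counts and were tested in each comparison. Levels per kilobase of gene model allow genes to be set beside each other only roughly. The length used is, for most of these genes, that of all annotated exons together. A gene whose transcripts are shorter than this ranks lower. On this scale Scd2 was the most abundant in sh-ctrl, at 265.4 ± 11.8 CPM per kilobase (SD, n = 3). It encodes a stearoyl-CoA desaturase, which puts the double bond into saturated fatty acids. Hmgcs1, the synthase that commits acetyl units to the mevalonate pathway, followed at 123 ± 8.31, then Mvd at 97.4 ± 12.6 and Idi1 at 88.6 ± 28.0. The lowest were Fdps at 2.39 ± 0.109, Abca1 at 1.04 ± 0.545 and Npc1 at 0.899 ± 0.125. Mvd and Idi1 do not differ beyond their spread, and neither do Abca1 and Npc1. The level of Fdps is uncertain, because 86.4% of its 50-base words also occur in 8 other genes, so reads may be lost or shared. The same share was 52.6% in Acaca, 45.9% in Acat2, 30.7% in Fdft1 and 30.5% in Idi1, so these counts also carry reads that other genes could claim.

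In the miR-125b libraries, set against sh-ctrl after 10 days, 10 of the 32 genes fell and 1 rose. Over all genes, 24.4% of 14004 were called at a Benjamini-Hochberg adjusted p-value under 0.05 in edgeR, 12.2% lower and 12.1% higher. The 10 that fell came from every role: the early enzymes Idi1 and Fdps, the late enzymes Dhcr7 and Hsd17b7, the regulator Srebf2, the transporters Stard4, Npc1 and Abca1, and the desaturases Scd1 and Scd2. The median log2 fold change of the 32 was −0.35, against −0.03 over all genes tested, and 24 of the 32 had a negative value. The groups did not overlap for 14 of the 32, against 44.9% of all genes. Idi1, Dhcr7, Scd2 and Stard4 were called in all 17 alternative fits. Without sh-ctrl library 3 these 4 alone were called, and without sh-ctrl library 1 or miR-125b library 1 the count was 6. In bulk RNA, fewer cells of a type and less RNA per cell cannot be told apart.

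Among the early enzymes, Idi1 (chromosome 13, 8885501 to 8892451, plus strand), which isomerises the isoprene unit, showed the lowest adjusted p-value of the 32. It was at 419.6, 229 and 283 CPM in sh-ctrl and 79.2, 69.6 and 84.4 in miR-125b, a log2 fold change of −2.0 ± 0.23 (SE, adjusted p 0.0021 in edgeR). The 3 miR-125b libraries all lay below every sh-ctrl library, and the first sh-ctrl library stood above the other 2. Fdps (chromosome 3, 89093588 to 89101959, minus strand), which joins the units into farnesyl diphosphate, was at 10.1, 9.61 and 10.5 CPM and 3.63, 6.48 and 3.54, with a log2 fold change of −1.15 ± 0.29 (SE, adjusted p 0.0201 in edgeR). Its groups did not overlap either, with the second miR-125b library nearest to the controls.

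Acat2 (chromosome 17, 12942890 to 12960747, minus strand), the thiolase that joins acetyl-CoA units first, was the 1 gene that rose. It is named after its values were seen, since it lies outside the 10 with the lowest adjusted p-values. It was at 113, 145 and 118 CPM in sh-ctrl and 169, 150.2 and 202 in miR-125b, a log2 fold change of 0.47 ± 0.15 (SE, adjusted p 0.0473 in edgeR). All 3 miR-125b libraries lay above the controls, by little in the second. Its call was lost with the replicate number as a block (adjusted p-value 0.0549) and with scaling by library totals (adjusted p-value 0.179), both from edgeR, and it was kept in 9 of 17 alternative fits.

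Hmgcs1, the HMG-CoA synthase, did not pass the test. It was at 424, 399 and 371 CPM in sh-ctrl and 304, 265 and 362 in miR-125b, a log2 fold change of −0.36 ± 0.15 (SE, adjusted p 0.0978 in edgeR). Its groups did not overlap, although miR-125b library 3 came close to sh-ctrl library 3. The other early enzymes were the kinases Mvk and Pmvk and the decarboxylase Mvd, whose log2 fold changes were 0.30, 0.20 and −0.12, none called. Log2 fold changes in this branch thus ran from −2.0 for Idi1 to 0.47 for Acat2.

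Of the 11 enzymes from squalene to cholesterol, 2 fell and 9 did not pass. Dhcr7 (chromosome 7, 143823145 to 143848410, plus strand), the reductase of the last step, was at 122, 125.1 and 114 CPM in sh-ctrl and 65.9, 50.7 and 69.9 in miR-125b. Its log2 fold change was −0.95 ± 0.16 (SE, adjusted p 0.00643 in edgeR). The control libraries lay close together and all miR-125b libraries far below them. Hsd17b7 (chromosome 1, 169949535 to 169969241, minus strand), the ketosteroid reductase that works in removing methyl groups from sterols, was at 30.5, 18.3 and 17.6 CPM and 12.3, 10.3 and 10.2, with a log2 fold change of −1.02 ± 0.30 (SE, adjusted p 0.0343 in edgeR). The first control was high here, as it was for Idi1, and the groups did not overlap.

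Sqle, the squalene epoxidase and a slow step of the pathway, gave 190.1, 199.6 and 186 CPM in sh-ctrl and 175, 168 and 201 in miR-125b. The groups overlapped, and the log2 fold change was −0.08 ± 0.12 (SE, adjusted p 0.636 in edgeR). Lss, the lanosterol synthase that closes the sterol rings, had a log2 fold change of −0.43 ± 0.15 (SE, adjusted p 0.063 in edgeR). The remaining 7 were Fdft1 (squalene synthase), Cyp51 (lanosterol demethylase), Tm7sf2 (a sterol reductase), Msmo1 and Nsdhl (removal of sterol methyl groups), Ebp (sterol isomerase) and Sc5d (sterol desaturase). Their log2 fold changes lay between −0.45 for Tm7sf2 and 0.23 for Ebp, and none was called.

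In the control system, Srebf2 (chromosome 15, 82147266 to 82205376, plus strand), whose protein is the main activator of cholesterol synthesis genes, fell. It was at 337, 318 and 278 CPM in sh-ctrl and 202, 173 and 207 in miR-125b, a log2 fold change of −0.68 ± 0.18 (SE, adjusted p 0.0225 in edgeR). No miR-125b library reached the lowest control. Srebf1, whose SREBP-1c product drives fatty acid synthesis, was at 252, 256 and 198 CPM and 156, 178 and 221, and its log2 fold change of −0.35 ± 0.17 (SE, adjusted p 0.151 in edgeR) was not called. Insig1, a target of SREBP that holds SCAP in the endoplasmic reticulum, was at 104, 70.3 and 59.7 CPM and 72.4, 50.8 and 72.04, at −0.26 ± 0.23 (SE, adjusted p 0.425 in edgeR). Both of these overlapped between the groups. Scap and Insig2 had log2 fold changes of 0.24 and 0.00, neither called.

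Cholesterol transport held 3 of the genes that fell. Stard4, which moves sterol between membranes inside the cell, was at 225, 189 and 214 CPM in sh-ctrl and 109, 117 and 128 in miR-125b, a log2 fold change of −0.83 ± 0.12 (SE, adjusted p 0.00548 in edgeR). Its 2 groups were tight and well apart. Npc1, which lets cholesterol out of the lysosome, was at 10.4, 8.09 and 10.4 CPM and 3.82, 6.26 and 4.27, with a log2 fold change of −1.01 ± 0.28 (SE, adjusted p 0.029 in edgeR). Npc2, its soluble partner, was not called, at 0.46 ± 0.19 (SE, adjusted p 0.102 in edgeR).

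The efflux pump gene Abca1 (chromosome 4, 53030787 to 53159895, minus strand) was at 4.38, 15.2 and 12.6 CPM in sh-ctrl and 0.924, 2.75 and 3.31 in miR-125b, a log2 fold change of −2.20 ± 0.53 (SE, adjusted p 0.0181 in edgeR). These are low levels: the first miR-125b library held 29 counts of Abca1. The first control, the lowest of its group, still lay above all miR-125b libraries. Abcg1, the other LXR-driven pump, was at 39.5, 62.8 and 61.3 CPM and 18.3, 29.1 and 60.5, and its log2 fold change of −0.60 ± 0.36 (SE, adjusted p 0.237 in edgeR) was not called. The third miR-125b library sat among the controls for Abcg1, while the first and second lay below them.

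All 4 fatty acid genes had negative log2 fold changes in miR-125b, and both desaturases were called. Scd2 (chromosome 19, 44293676 to 44306864, plus strand) was at 1488, 1373 and 1480 CPM in sh-ctrl and 474, 532 and 918 in miR-125b, a log2 fold change of −1.18 ± 0.24 (SE, adjusted p 0.0114 in edgeR). Scd1 (chromosome 19, 44394451 to 44407709, minus strand), its neighbour, was at 167, 145 and 129.9 CPM and 61.7, 46.5 and 109, with a log2 fold change of −1.02 ± 0.29 (SE, adjusted p 0.0293 in edgeR). In both, the third miR-125b library stood well above the other 2 yet below every control. Fasn, the fatty acid synthase, was at 476, 728 and 598 CPM and 379.8, 430 and 603, and overlapped, with a log2 fold change of −0.35 ± 0.20 (SE, adjusted p 0.224 in edgeR). Acaca, the carboxylase that feeds it, had a log2 fold change of −0.35 ± 0.16 (SE, adjusted p 0.133 in edgeR).

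**Figure D2:**
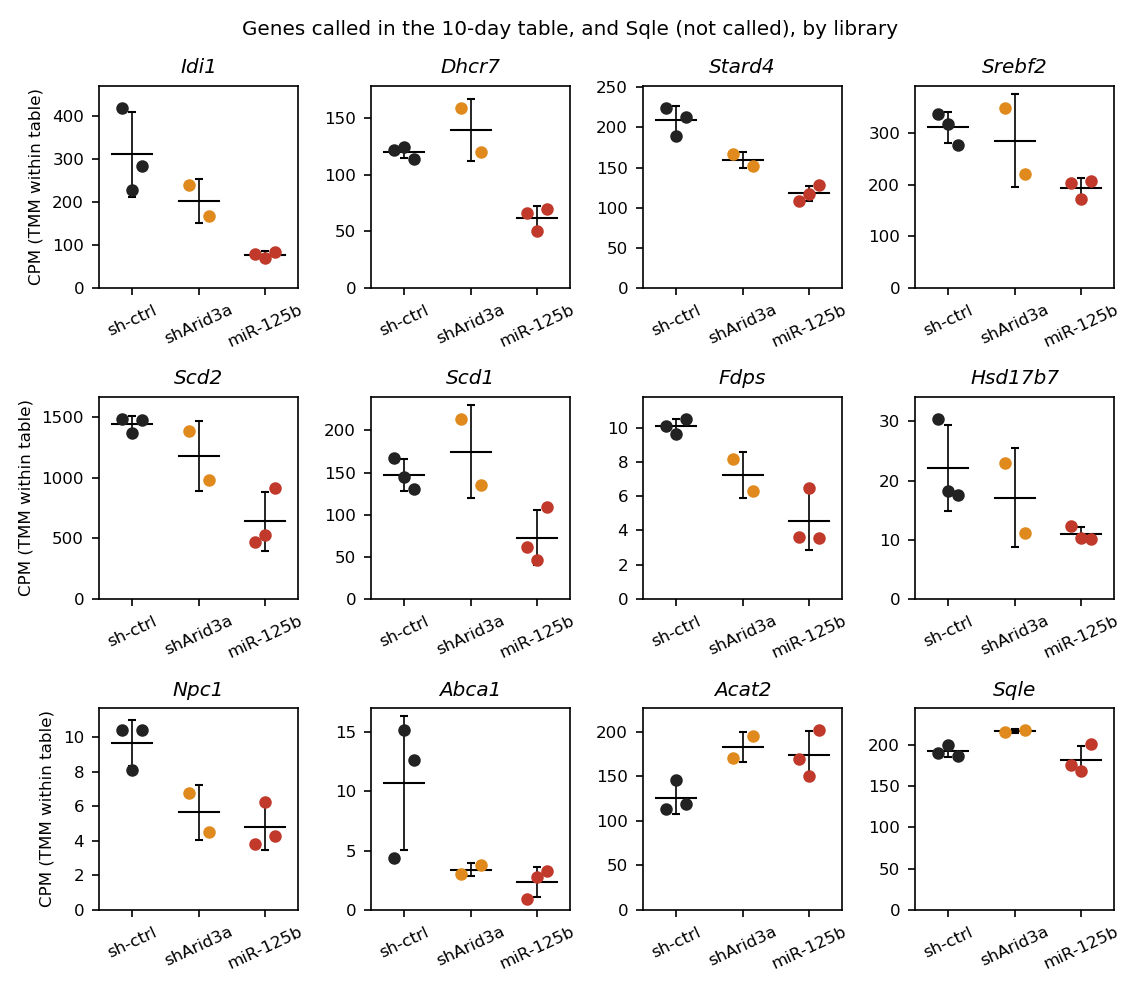
CPM (TMM within the table) of the 11 genes called in miR-125b against sh-ctrl, and of Sqle, which was not called, in the 8 libraries of the 10-day table. Each point is a library and each bar the group mean with its SD. The miR-125b points lie below every sh-ctrl point for the 10 genes that fell and above them for Acat2.

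Scaling and cell markers moved with this comparison. With library totals in place of TMM, the median of all genes shifted from −0.03 to −0.22, the share of calls that were higher went from 49.8% to 26.6%, and 14 of the 32 genes were called lower and none higher. Log2 fold changes here are therefore relative to TMM's centre. Ribosomal RNA-like genes (5 genes) summed to 259 to 532 CPM in sh-ctrl and 2476 to 3263 in miR-125b, and 10 genes fell and 1 rose also when they were left out. Markers of dividing cells (12 genes) summed to 3105 to 3624 CPM in sh-ctrl and 3209 to 4021 in miR-125b, with Pcna and Tyms called higher and Mki67 lower. Megakaryocyte markers summed to 2478 to 4074 CPM and 2439 to 3164, erythroid markers to 299.6 to 366 and 249 to 283, and granulocyte markers to 47.4 to 97.2 and 80.2 to 149.9. Mast cell and basophil markers summed to 6.51 to 88.2 and 30.7 to 387 CPM, macrophage markers to 6.62 to 16.3 and 14.8 to 22.4, and hepatocyte markers to 0.791 to 1.27 and 3.95 to 5.94. The part of these cell markers in the result was not tested.

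In the libraries that carried the hairpin against Arid3a, none of the 32 genes passed the test against sh-ctrl. Few genes did at all: 12 of 14004 (0.0857%) were called. Of the 12, 5 were ribosomal RNA-like genes, all higher. When these were left out of the fit, 0 genes were called, so the call of Arid3a itself was lost. Unadjusted p-values were under 0.05 for 13 of the 32, 9 of them positive, against 25.8% of all genes. DESeq2 called 1326 genes, 2 of the 32 among them, Ebp higher and Abca1 lower. The groups did not overlap for 17 of the 32, against 43.9% of all genes. The median log2 fold change of the 32 was 0.23, beside −0.02 over all genes, and under library totals it was 0.04 beside −0.22.

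By role, the signs differed. Of the enzymes from squalene to cholesterol, 10 of 11 had a positive log2 fold change, with a median of 0.35. Ebp, the sterol isomerase, was highest, at 73.2, 70.0 and 52.3 CPM in sh-ctrl and 89.7 and 107 in shArid3a, a log2 fold change of 0.59 ± 0.17 (SE, adjusted p 0.103 in edgeR). Msmo1 was at 214, 180.2 and 166 CPM and 252 and 262, at 0.46 ± 0.16 (SE, adjusted p 0.132 in edgeR). In both, the 2 shArid3a libraries lay above every control. Sqle was at 215 and 218 CPM in shArid3a, with a log2 fold change of 0.17 ± 0.13 (SE, adjusted p 0.426 in edgeR). The early enzymes gave 5 positive values of 7, among them Acat2 at 170.5 and 195 CPM in shArid3a, with a log2 fold change of 0.54 ± 0.17 (SE, adjusted p 0.111 in edgeR). Hmgcs1 was at 521 and 446 CPM, at 0.28 ± 0.16 (SE, adjusted p 0.301 in edgeR).

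Idi1 and Fdps, and 4 of the 5 transport genes, had negative values instead. Idi1 was at 239 and 166 CPM in shArid3a, with a log2 fold change of −0.62 ± 0.25 (SE, adjusted p 0.161 in edgeR), and its first library overlapped the controls. Abca1 was at 2.99 and 3.77 CPM, below all controls, at −1.66 ± 0.60 (SE, adjusted p 0.134 in edgeR). Stard4 was at 167 and 152 CPM, also below all controls, at −0.39 ± 0.14 (SE, adjusted p 0.132 in edgeR). Of these 3, Abca1 overlapped the miR-125b libraries, and Idi1 and Stard4 lay above them. Npc1 was at 6.77 and 4.51 CPM and Fdps at 8.18 and 6.31, below all controls, with log2 fold changes of −0.77 and −0.48. Hsd17b7 was at 23.1 and 11.2 CPM, 1 library within and 1 below the controls. Dhcr7, which fell in miR-125b, was at 159.5 and 121 CPM in shArid3a, 1 library above the controls and 1 within their range, with a log2 fold change of 0.22 ± 0.17 (SE, adjusted p 0.444 in edgeR).

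None of the regulators and fatty acid genes was called. Scap, the escort protein of SREBP, was at 65.9, 76.8 and 71.6 CPM in sh-ctrl and 85.8 and 88.6 in shArid3a, above all controls (log2 fold change 0.29 ± 0.12, SE, adjusted p 0.182 in edgeR). Acaca, at 76.3 and 60.6 CPM, overlapped the controls with a log2 fold change of −0.32. Srebf2 was at 349 and 221 CPM, 1 library above and 1 below the controls (log2 fold change −0.12 ± 0.20, SE, adjusted p 0.717 in edgeR). Srebf1 was at 271 and 219 CPM and Insig1 at 94.4 and 64.9, with log2 fold changes of 0.06 and 0.03. Scd1 was at 214 and 136 CPM (log2 fold change 0.25 ± 0.32, SE, adjusted p 0.647 in edgeR) and Scd2 at 1387 and 978 (log2 fold change −0.29 ± 0.27, SE, adjusted p 0.522 in edgeR). For both desaturases library 3 lay below library 1. Fasn at 568 and 513 CPM and Abcg1 at 47.4 and 43.8 lay within the range of the controls. Markers of dividing cells summed to 3970 to 4232 CPM in shArid3a, above the 3105 to 3624 of sh-ctrl, with 11 of 12 positive, and ribosomal RNA-like genes to 2834 to 3166 CPM against 259 to 532. The part of dividing cells in these values was not tested.

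**Figure D3:**
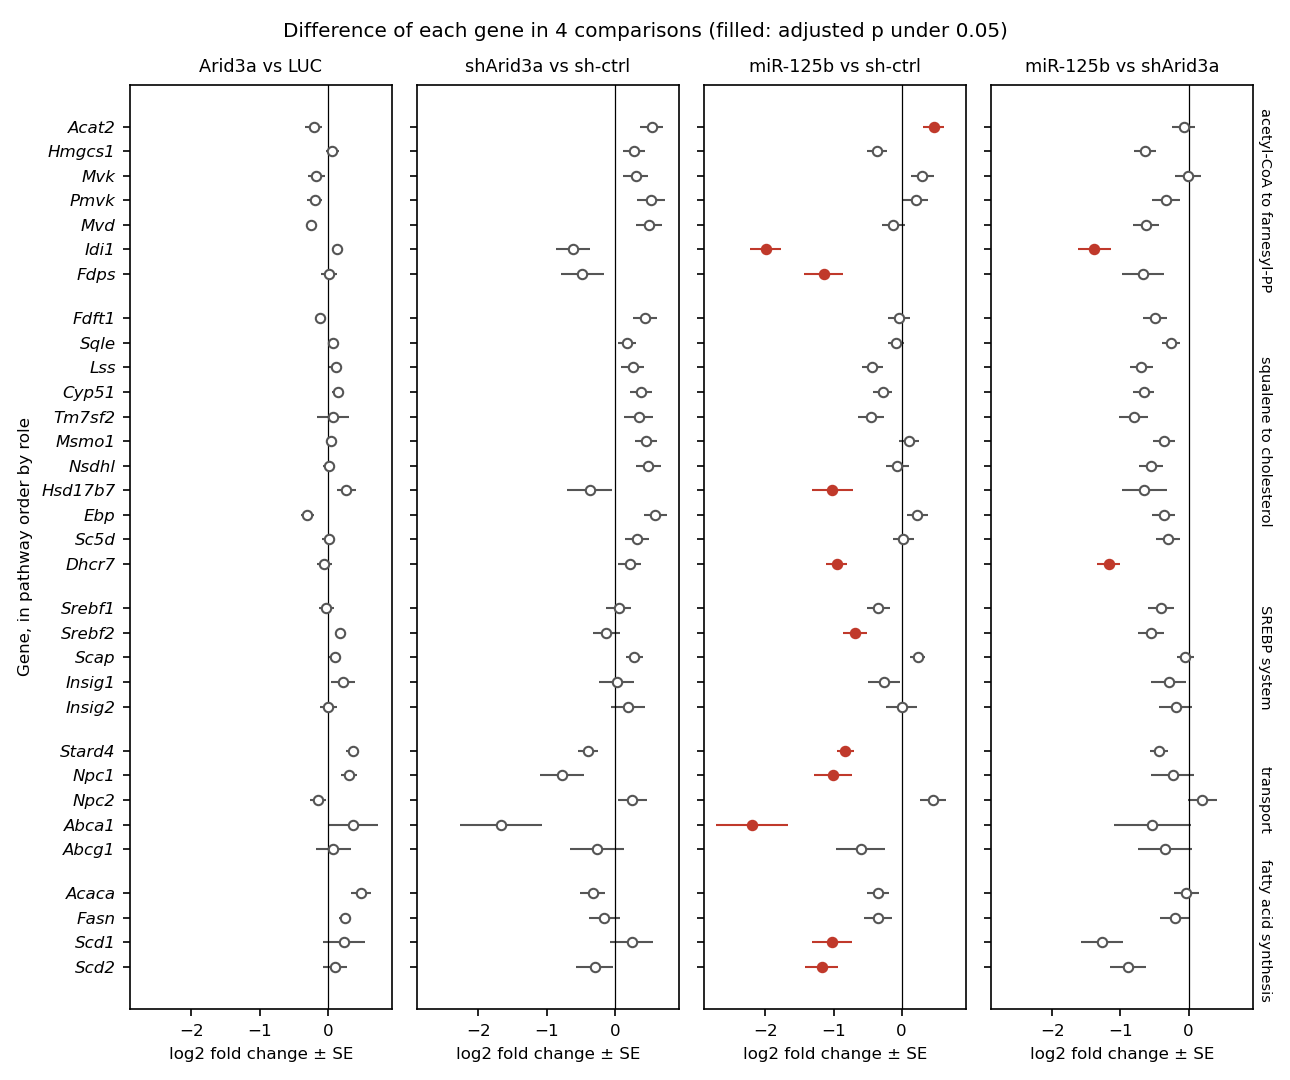
Log2 fold change of each of the 32 genes, with its standard error, in the 4 comparisons, arranged by role. Filled points passed an adjusted p-value of 0.05 in edgeR: none in Arid3a vs LUC or shArid3a vs sh-ctrl, 11 in miR-125b vs sh-ctrl and 2 in miR-125b vs shArid3a.

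Arid3a fell in both hairpin and microRNA libraries, and the miR-125b libraries were also set against shArid3a, in the same table. This comparison and the 2 above share libraries, and their values are given side by side rather than related to each other. Dhcr7 and Idi1 were lower in miR-125b, 2 of the 32, against 1.35% of all genes called (0.686% lower). A further 29 genes had a negative log2 fold change without passing, so that 31 of 32 were negative, beside 50.6% of the 14004 genes, with a median of −0.42 against −0.01. Npc2, at 0.20, was the exception. The groups did not overlap for 18 of the 32, against 29.8% of all genes, and unadjusted p-values were under 0.05 for 13, all lower, against 7.2%.

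Dhcr7 was at 159.5 and 121 CPM in shArid3a and 65.9, 50.7 and 69.9 in miR-125b, a log2 fold change of −1.17 ± 0.17 (SE, adjusted p 0.0125 in edgeR), the lowest adjusted p-value of the 32. Idi1 was at 239 and 166 CPM and 79.2, 69.6 and 84.4, with −1.38 ± 0.24 (SE, adjusted p 0.0261 in edgeR). For both, every miR-125b library lay below both shArid3a libraries. Leaving out shArid3a library 1 or miR-125b library 2 left no gene of the 32 called, and without miR-125b library 3 Idi1 was lost, so these 2 calls rest on few libraries.

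All 11 enzymes from squalene to cholesterol had negative values, and the groups did not overlap for 10. Cyp51, the demethylase of lanosterol, was at 293 and 292 CPM in shArid3a and 191, 165 and 199 in miR-125b, at −0.66 ± 0.16 (SE, adjusted p 0.0776 in edgeR). Lss was at 218 and 172 CPM and 121, 105 and 134, at −0.70 ± 0.17 (SE, adjusted p 0.079 in edgeR). Tm7sf2 was at 45.6 and 36.2 CPM and 21.7, 19.8 and 28.6, at −0.81 ± 0.21 (SE, adjusted p 0.0997 in edgeR). None of these 3 passed, although in each the miR-125b libraries all lay below the pair. Sqle had −0.26 ± 0.13 (SE, adjusted p 0.405 in edgeR) and was likewise separate.

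The early enzymes were all negative, 7 of 7, with Hmgcs1 at −0.64 ± 0.16 (SE, adjusted p 0.0905 in edgeR) and Mvd at −0.63. Mvd was at 179, 189 and 146 CPM in sh-ctrl, 229.6 and 256 in shArid3a and 157, 125.2 and 190.3 in miR-125b. The desaturases had large differences and wide errors: Scd1 gave −1.27 ± 0.31 (SE, adjusted p 0.0824 in edgeR) and Scd2 −0.88 ± 0.27 (SE, adjusted p 0.147 in edgeR). Srebf2 gave −0.56 ± 0.19 (SE, adjusted p 0.208 in edgeR), Srebf1 −0.40 and Insig1 −0.29. Stard4, whose libraries lay below every sh-ctrl library in both groups, gave −0.44 ± 0.14 (SE, adjusted p 0.165 in edgeR). Abca1, Abcg1 and Fasn gave −0.53, −0.34 and −0.20, and none was called. Markers of dividing cells had 11 of 12 negative values here, with a median of −0.15, and none was called; their part in the result was not tested. Ribosomal RNA-like genes were at like levels, 2834 to 3166 CPM and 2476 to 3263.

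**Figure D4:**
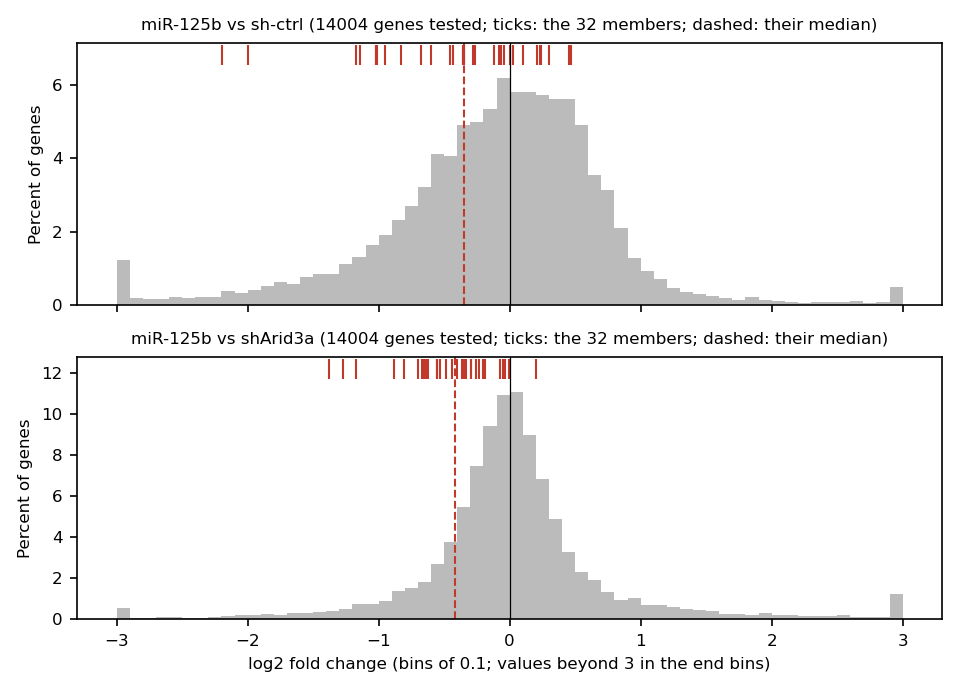
Distribution of log2 fold changes over the 14004 genes tested, for miR-125b against sh-ctrl and against shArid3a, in bins of 0.1, with a tick for each of the 32 genes and a dashed line at their median. The ticks lie left of 0 for 24 and 31 of the 32, and the medians are −0.35 and −0.42, beside −0.03 and −0.01 for all genes.

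Across the 3 groups of the 10-day table, 13 of the 32 genes had their mean lowest in miR-125b and highest in shArid3a, and 11 had it lowest in miR-125b and highest in sh-ctrl. The first set includes Dhcr7, Lss, Cyp51 and Hmgcs1, and the second includes Idi1, Stard4, Abca1 and Scd2. With library totals these counts were 11 and 15. Lowest levels in miR-125b thus held for 24 genes with TMM and 26 with library totals, while the place of shArid3a depended on the gene and, for some, on the scaling.

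The Arid3a transgene was set against luciferase after 48 h in the other table, where Arid3a counts were not raised beyond the spread between libraries. For Arid3a, libraries 2 and 3 labelled Arid3a lay above every LUC library and library 1 lay below them all. None of the 32 genes was called, as was none of 13495 tested (0.0%) in edgeR, where 2885 had an unadjusted p-value under 0.05. DESeq2 called 1201 genes, 2 of the 32 among them, Acaca and Stard4. Unadjusted p-values were under 0.05 for 5 with a positive and 2 with a negative log2 fold change, against 10.9% and 10.5% of all genes, and 7 did not overlap, against 27.6%. The median of the 32 was 0.08, beside 0.01 for all genes, and 23 were positive.

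The smallest adjusted p-value belonged to Stard4, at 331, 267 and 274 CPM in LUC and 389, 351 and 381 in the libraries labelled Arid3a, a log2 fold change of 0.36 ± 0.10 (SE, adjusted p 0.106 in edgeR). Srebf2 was at 329, 346 and 337 CPM and 383, 372 and 390, at 0.18 ± 0.06 (SE, adjusted p 0.14 in edgeR). In both the libraries labelled Arid3a lay above every LUC library. Acaca was at 127, 113 and 111 CPM and 126, 184 and 182, at 0.48 ± 0.15 (SE, adjusted p 0.133 in edgeR), and its first library labelled Arid3a lay among the controls. Fasn was at 734, 757 and 732 CPM and 783, 925 and 931, at 0.25 ± 0.08 (SE, adjusted p 0.143 in edgeR), without overlap.

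Idi1, at 379, 334 and 372 CPM in LUC and 389.9, 391 and 416 in the libraries labelled Arid3a, gave 0.14 ± 0.07 (SE, adjusted p 0.3 in edgeR). Hmgcs1 was at 615, 508 and 525 CPM and 562, 535 and 632 (log2 fold change 0.07 ± 0.10, SE, adjusted p 0.717 in edgeR), and Sqle at 252, 240.3 and 245 and 233, 268 and 279 (log2 fold change 0.08 ± 0.08, SE, adjusted p 0.595 in edgeR). Dhcr7 was at 148, 135 and 152 CPM and 161, 121 and 138, and overlapped. So did Acat2, at 151, 143 and 163 and 147, 108 and 139.6, Fdps, at 15.5, 14.3 and 14.04 and 15.8, 13.1 and 15.6, and Hsd17b7, at 30.1, 28.8 and 37.4 and 32.7, 41.1 and 42.2 CPM. Npc1 was at 14.7, 12.54 and 14.98 CPM and 18.9, 16.6 and 16.9, without overlap, at 0.31 ± 0.12 (SE, adjusted p 0.197 in edgeR). Ebp (−0.30) and Mvd (−0.24) had the lowest values among those that did not overlap. The second library labelled Arid3a stood low: 26 of the 32 genes lay below their group mean in it and 27 lay above it in library 3.

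Scd1 and Scd2 show that spread: Scd1 was at 232, 167 and 178 CPM in LUC and 329.9, 131 and 219 in the libraries labelled Arid3a, and Scd2 at 1788, 1421 and 1397 and 1954, 1250 and 1755. Srebf1 was at 211, 210.3 and 211 CPM and 239, 174 and 211, and Insig1 at 86.7, 89.0 and 97.4 and 139, 81.7 and 98.4. Abca1 was at 6.54, 8.03 and 4.61 CPM and 4.38, 9.20 and 11.2, and Abcg1 at 40.6, 37.7 and 33.0 and 53.4, 24.0 and 40.4. All 6 overlapped, with log2 fold changes from −0.02 for Srebf1 to 0.37 for Abca1. Leaving out the first library labelled Arid3a gave 3198 calls over all genes and 7 among the 32. These 7 were Acaca, Fasn, Hsd17b7, Srebf2 and Stard4, higher, and Ebp and Npc2, lower. The count of none, over all genes and among the 32, thus depends on that library.

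Summed over each role, the levels show the sizes behind these ratios. The squalene to cholesterol enzymes summed to 1331 ± 142 CPM in sh-ctrl, 1698 ± 117 in shArid3a and 1178 ± 138 in miR-125b (SD, n = 3, 2 and 3). The fatty acid genes, most of it Scd2 and Fasn, summed to 2281 ± 70.9 CPM, 1967 ± 395 and 1251 ± 399 in the same groups. The early enzymes summed to 1156 ± 137 CPM, 1311 ± 84.3 and 889.7 ± 143, and the control system to 710.8 ± 77.3, 714 ± 145 and 543 ± 52.5. In LUC and the libraries labelled Arid3a, the early enzymes summed to 1416 ± 78.8 and 1413 ± 108, and the fatty acid genes to 2586 ± 256 and 2923 ± 378 CPM. The sums are single descriptions, dominated by the most abundant genes, and no test was made on them.

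**Figure D5:**
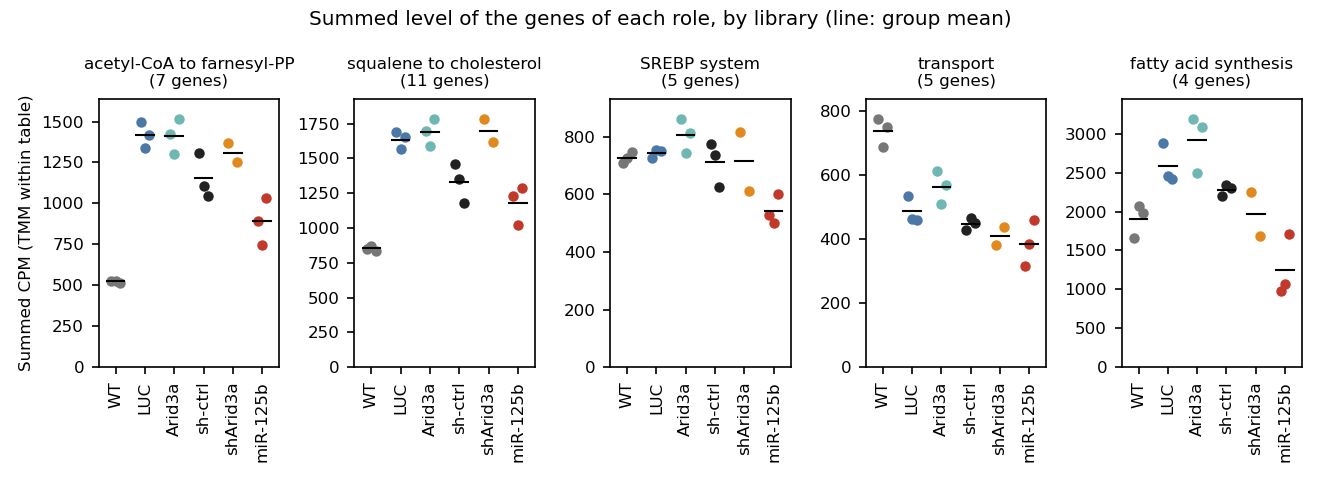
Summed CPM (TMM within each table) of the genes of each role, by library, for the 6 groups. Points are libraries and lines group means. The WT points are lowest for the early enzymes (514.9 to 529 CPM) and highest for transport (685.7 to 775 CPM).

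Levels in WT can be described but not tested against the others, because genotype, second transgene, Doxycycline and count table all change together and cannot be told apart. Markers of other cell types also differed: macrophage markers (8 genes) summed to 6368 to 7535 CPM and granulocyte markers (8 genes) to 12410 to 16910, against at most 57.4 and 149.9 in the other 14 libraries. Mast cell and basophil markers summed to 1406 to 1639 CPM against at most 387, megakaryocyte markers to 958 to 1218 against 2177 to 4074, and erythroid markers to 475 to 576, within the range of the others. Their part in the WT levels was not tested. All 3 WT libraries lay below the other 14 for 16 of the 32 genes when scaling was made over the joined tables, 12 with scaling within tables and 13 with library totals. Of 16142 genes with at least 10 reads in at least 2 of the 17 libraries, 15.1%, 9.92% and 11.0% did so under these 3 scalings. They lay above the other 14 under each of the 3 scalings for Abca1, Npc1 and Npc2, and 21.0%, 23.6% and 23.4% of the 16142 genes did so.

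The values that follow are scaled within each table, and the tables were scaled separately. Hmgcs1 shows the low side. It was at 202, 228 and 208 CPM in WT, and the lowest other library, in miR-125b, was at 265.2. Lss was at 75.9, 72.8 and 76.2 CPM and Sqle at 140.1, 146 and 139, again below every other library. Idi1 was at 70.3, 93.7 and 92.9 CPM in WT, which overlaps the 79.2, 69.6 and 84.4 of miR-125b, and Dhcr7 was at 67.6, 76.5 and 64.8, overlapping as well. Acat2 was at 88.3, 71.2 and 87.2 CPM in WT, below every other library, while Fdps, at 7.89, 3.91 and 5.0, and Hsd17b7, at 21.8, 23.3 and 26.2, were not. Scd1 was at 70.8, 88.3 and 86.3 CPM, between miR-125b libraries 1 and 3. Scd2 was at 1163, 1378 and 1335 CPM, Fasn at 332, 470.3 and 431 and Srebf1 at 171, 171 and 166.

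On the high side, Abca1 was at 24.5, 48.2 and 41.7 CPM in WT, and the highest other library was at 15.2. Npc2 was at 523, 372 and 427 CPM and Npc1 at 32.05, 43.2 and 43.6. The LXR target Abcg1 was at 54.1, 54.6 and 60.7 CPM in WT, within the range of sh-ctrl. Of the regulators, Srebf2 was at 351, 373 and 366 CPM and Insig1 at 106, 101 and 132, both inside the range of the other groups. Stard4 was at 141, 168 and 176 CPM, between miR-125b and sh-ctrl. With scaling over the joined tables, Stard4 in WT (128.7 to 157.5 CPM) overlapped miR-125b (121.9 to 141.2 CPM).

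Over the joined tables, the mean was lowest in WT for 21 of the 32 genes and in miR-125b for 8, and highest in shArid3a for 17 and in the libraries labelled Arid3a for 9. Within-table scaling gave 16 and 15 as lowest and 11 and 14 as highest, and library totals gave 15 and 16 as lowest and 8 and 16 as highest. The order within these pairs of groups therefore depended on the scaling. Within groups, the median coefficient of variation of the 32 genes was 6.68% in LUC, 11.1% in the libraries labelled Arid3a, 11.8% in WT, 13.9% in sh-ctrl, 14.4% in shArid3a and 16.4% in miR-125b. In miR-125b, 27 of the 32 lay below their group mean in library 2 and 27 above it in library 3.

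Other genes of the pathways, in lists chosen apart from the 32, were counted in the same way. In miR-125b against sh-ctrl, 1 of 17 further fatty acid genes rose and 4 fell, and 2 of 19 further sterol, SREBP and LXR genes rose and 3 fell, where 12.1% of all genes tested rose and 12.2% fell. Vldlr, a lipoprotein receptor gene, was at 41.9, 45.5 and 61.0 CPM in sh-ctrl and 18.6, 16.3 and 21.6 in miR-125b, a log2 fold change of −1.39 ± 0.22 (SE, adjusted p 0.00609 in edgeR). Acss2, which makes acetyl-CoA from acetate, was at 71.0, 76.9 and 80.7 CPM and 37.1, 40.2 and 50.8, at −0.83 ± 0.16 (SE, adjusted p 0.00952 in edgeR). Neither overlapped between groups. Mylip, an LXR target that degrades lipoprotein receptors, fell (log2 fold change −1.35 ± 0.30, SE, adjusted p 0.0137 in edgeR), as did the elongase gene Elovl6 (log2 fold change −0.55 ± 0.14, SE, adjusted p 0.0201 in edgeR), and Erlin1 rose (log2 fold change 0.55 ± 0.14, SE, adjusted p 0.0201 in edgeR).

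Against shArid3a, miR-125b had 2 of the 17 fatty acid genes lower, Acss2 (log2 fold change −1.17 ± 0.18, SE, adjusted p 0.0146 in edgeR) and the desaturase Fads2, where 0.686% of all genes tested were lower. Fads2 was at 294 and 237 CPM in shArid3a and 113, 102 and 154 in miR-125b, a log2 fold change of −1.11 ± 0.20 (SE, adjusted p 0.0302 in edgeR). Of these 17 genes 14 had negative values, with a median of −0.53. The 19 sterol, SREBP and LXR genes had 7 negative values and a median of 0.04. None of either list was called in shArid3a against sh-ctrl or in the libraries labelled Arid3a against LUC.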

How the data were processed

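RNA sequencing read counts per gene were analysed for 17 mouse fetal liver cell libraries. The authors deposited raw counts in 3 tables (LUC and Arid3a; sh-ctrl, shArid3a and miR-125b; WT), checked here to be whole numbers, with no normalization. Per the labels' protocols, RNA was extracted with a Quick-RNA kit and libraries were made by a standard Illumina method. The submitters' processing notes name fastp, HISAT2 2.0.5, featureCounts and mm10, and their order, parameters, annotation and use of strand are not given in the sources used here. Without strand, reads of overlapping antisense genes cannot be told apart.

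Tables were joined by Ensembl identifier (46880 genes), groups came from the labels alone, and no column was left unmapped. Each table with a comparison was fitted whole with edgeR 4.0.16 (R 4.3.3): TMM, filterByExpr (minimum count 10), 1 term per group, glmQLFit and glmQLFTest, with Benjamini-Hochberg adjustment over all genes tested, called under 0.05. The 3 groups of the 10-day table shared one fit. Standard errors were derived from the F statistic. Log scales for the pairing check used a prior count of 2. Levels are CPM scaled by TMM within a table, or over the joined tables where a sentence or caption says so. CPM per kilobase used the deposited gene length. Depth was 16362439 to 40859301 counts per library. Counts are reads without molecular identifiers, so counting precision is an upper limit of what they show.

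Same-numbered sh-ctrl and miR-125b libraries deviated together, with correlations of 0.427, 0.151 and 0.294 over genes. With unlike numbers, sh-ctrl library 3 and miR-125b library 2 gave 0.205. For LUC and Arid3a the same-numbered values were 0.158, 0.365 and 0.0084, while LUC library 3 and Arid3a library 1 gave 0.2. Whether the numbers pair libraries is thus not settled for these groups. The main fits leave the numbers out, and the replicate block was run as an alternative.

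The 32 genes and the lists were chosen with earlier results of these data known. All 32 are accounted for by role. Values in every library are given for called genes, up to the 10 with the smallest adjusted p-value in each comparison, and for a fixed set (Hmgcs1, Sqle, Insig1, Srebf1, Srebf2, Abca1, Abcg1, Fasn, Scd1 and Scd2). Acaca, Acat2, Cyp51, Ebp, Lss, Msmo1, Mvd, Npc2, Scap and Tm7sf2 were added after their values were seen. Other pathway genes are given as counts, naming up to 5 called ones per comparison. Alternatives were other scalings, filters, robust fitting, the replicate block, leaving out ribosomal RNA-like genes or each library, fitting only the groups compared, and DESeq2 1.42.0. The fitting code was tested on simulated data. Sequences were read with Python 3.11.15 (pandas 2.3.3, numpy 2.4.6), and figures drawn with matplotlib 3.10.9. Shared sequence between genes was measured on the longest protein-coding transcript of each gene (GENCODE M21). It is the share of that transcript's 50-base words found, on either strand, in transcripts of other genes.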

Additional observations from a re-analysis of the deposited data

How the results depend on the processing

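No called log2 fold change of the 32 genes turned sign under the alternatives run. Of the values for single genes, 1938 kept their sign and side of the threshold, 34 lost a call, 38 gained one and 70 uncalled values changed sign. The cause of these moves was not tested.

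In miR-125b against sh-ctrl, leaving out one library gave 734 to 3452 genes and 4 to 10 of the 32, and the replicate block gave 3687 genes and 10 of the 32, losing Acat2. In miR-125b against shArid3a, leaving out one library gave 12 to 329 genes and 0 to 3 of the 32, and the replicate block gave 255 genes and 2 of the 32. With no filter these were 715 and 9, and with DESeq2 741 and 8.

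In shArid3a against sh-ctrl, genes called numbered 20 with library totals, 1237 with no filter, 19 with at least 10 counts in every library, 19 with robust fitting, 0 without ribosomal RNA-like genes and 1326 with DESeq2, and leaving out one library gave 2 to 306. Of the 32, 3 were called with no filter (Ebp, Abca1 and Idi1) and 2 with DESeq2.

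In Arid3a against LUC, 71 genes were called with no filter and 1201 with DESeq2 (2 of the 32), and leaving out one library gave 0 to 3198 genes and 0 to 7 of the 32, the highest without Arid3a library 1. Genes of the 32 with a negative log2 fold change then numbered 7 to 17. The replicate block called 0 of the 32. Whether the replicate numbers pair these libraries is not settled.

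Over 6 groups, genes lowest in miR-125b went from 8 to 16 with library totals and 15 with scaling within tables, a setting added after the data were seen. Those highest in shArid3a went from 17 to 8 and 11, and those highest in Arid3a from 9 to 16 and 14. The shArid3a group has 2 libraries.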
